A study of Rattus norvegicus with 45 samples.

Results

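Kruppel-like factors are zinc finger proteins that bind GC-rich and CACCC sequences in promoters. Here 10 of them were followed in rat liver after an overdose of acetaminophen (APAP): Klf2, Klf3, Klf4, Klf5, Klf6, Klf9, Klf10, Klf11, Klf13 and Klf15. They were taken by symbol, and each was found once among the 13877 genes of the deposited array table, so all 10 were analysed. The array carries 1 probe set per gene after the remapping that was used, and the values are log2 intensities, on which a difference of 1 is a doubling. Levels of different genes are not set against each other, because probe sets differ in brightness.

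Total liver RNA was measured on 45 arrays, 1 per animal, in 9 groups of 5 male Sprague-Dawley rats fasted overnight, whose age in this time course is not given in the sources used here. APAP rats received 1000 mg/kg by oral gavage in 1% hydroxyethylcellulose and were killed at 3, 6, 9 or 24 h. Vehicle rats received the hydroxyethylcellulose alone and were killed at the same times, and untreated rats were killed at 0 h (baseline). APAP injures the liver when its reactive product overruns the supply of glutathione. All animals shared the fast, the sex and the strain. The study reports that food was given again after the fast. Vehicle rats therefore differ from baseline rats by gavage, by time of day and by the return of food, which cannot be told apart. APAP rats differ from baseline rats in these ways as well as by APAP.

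The family divides by the proteins its members recruit. Klf2, Klf4, Klf5 and Klf6 mostly activate transcription. Klf9, Klf10, Klf11 and Klf13 carry a domain that binds the corepressor Sin3, Klf3 binds the corepressor CtBP, and Klf15 is known in liver for its part in amino acid breakdown and gluconeogenesis during fasting. Klf6 is known as an early gene of liver injury, Klf9 as a gene induced by glucocorticoids, and Klf10 and Klf11 as genes induced by TGF-beta.

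Promoter sequence was found for 7 of the 10 members in the RefSeq table used (build GRCr8), and Klf2, Klf10 and Klf13 are named only. The 250 bases before the start are shown for Klf6 and Klf9, the genes with the greatest response to APAP, and for Klf5, which was called at 9 h and not before. In these 3 the start is the first base of the gene in RefSeq. In the other members with a sequence the start used lies inside the RefSeq gene. It lies inside by 8592 bases in Klf3, 590 in Klf4, 363 in Klf15 and 136 in Klf11. They are written 5′ to 3′ on the gene's own strand. Capitals mark the E-box CACGTG and the CRE core TGACG on either strand (CGTCA on the other).
Klf6, chr17:69458479-69458728, minus strand: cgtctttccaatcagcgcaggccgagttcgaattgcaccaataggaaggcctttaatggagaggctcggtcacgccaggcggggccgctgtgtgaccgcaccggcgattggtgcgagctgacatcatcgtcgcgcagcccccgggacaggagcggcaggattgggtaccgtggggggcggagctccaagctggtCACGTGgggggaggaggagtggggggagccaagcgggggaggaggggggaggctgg
Klf9, chr1:230126396-230126645, plus strand: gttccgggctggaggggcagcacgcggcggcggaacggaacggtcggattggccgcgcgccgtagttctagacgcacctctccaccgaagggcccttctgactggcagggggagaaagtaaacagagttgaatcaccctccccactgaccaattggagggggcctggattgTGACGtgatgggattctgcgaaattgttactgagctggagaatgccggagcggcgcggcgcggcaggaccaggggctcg
Klf5, chr15:82471831-82472080, plus strand: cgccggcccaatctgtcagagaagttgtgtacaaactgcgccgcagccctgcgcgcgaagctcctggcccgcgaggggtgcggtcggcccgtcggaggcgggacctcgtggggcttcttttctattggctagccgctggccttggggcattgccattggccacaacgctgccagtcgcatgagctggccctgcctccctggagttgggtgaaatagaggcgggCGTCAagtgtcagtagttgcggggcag
The Klf6 window held an E-box that began 56 bases before the start and no CRE core. The Klf9 window held a CRE core 79 bases before the start, and the Klf5 window held 1 on the opposite strand at 27 bases. Over the 7 members, an E-box was found in 3 (Klf6, Klf11 and Klf15), against 5.59% of all 33469 promoters of that length. A CRE core was found in 3 (Klf5, Klf9 and Klf15), against 18.2% of all promoters, and in Klf15 a CRE core and the E-box overlapped. The CCAAT box was found in 6 of the 7, all but Klf4, against 34% of all promoters. A core glucocorticoid response element, with its spacer of 3 free bases, was found in 0 of the 7 windows, against 0.373% of all promoters. The windows of Klf3, Klf4, Klf11 and Klf15 lie wholly or partly inside the gene, so these counts mix sequence before the gene with sequence within it. Such matches describe the letters only.

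Liver identity was clear on every array. The 6 hepatocyte markers lay near the top of the scale (Alb between 14.94 and 15.07), and 0 of the 6 were called in any comparison of APAP with vehicle. Array medians lay between 7.29 and 7.37, arrays of 1 group correlated at 0.983 to 0.996 across genes, and 0 arrays were identical to another. In bulk liver, fewer cells of a type and less RNA per cell cannot be told apart.

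At 3, 6 and 9 h these 10 Kruppel-like factors were higher in APAP rats more often than they were lower. At 24 h Klf10, which was lower, was the one member called. The 10 were chosen with earlier results of these data known, so their counts are a description and no test of the family. Of 7 other Klf and Sp genes measured, 0 were called higher at 3, 6, 9 or 24 h, and 1 was lower at 6 and 9 h. A gene was called where limma's Benjamini-Hochberg adjusted p over all 13877 genes was under 0.05 and the difference was at least 1.5-fold. At 3 h, 5 members were called higher (Klf4, Klf6, Klf9, Klf10 and Klf11) and 0 lower, against 3.34% of all genes higher and 2.98% lower. At 6 h, 4 were higher (Klf4, Klf6, Klf9 and Klf11) and 0 lower, against 7.06% and 7.04% of all genes. At 9 h, 4 were higher (Klf4, Klf5, Klf6 and Klf9) and Klf15 was lower, against 8.65% and 8.47% of all genes. At 24 h, 0 were higher and Klf10 was lower, against 1.56% and 1.84% of all genes. The median log2 difference of the 10 members was 0.53, 0.30, 0.22 and -0.05 at 3, 6, 9 and 24 h, and that of all genes was -0.02, -0.04, -0.03 and 0.01. The APAP and vehicle rats did not overlap for 5, 6, 5 and 1 of the 10 members at these times. The same held for 20.2%, 33.1%, 35% and 10.1% of all genes. With arrays centred on 6 ribosomal protein genes instead, 7 members were called lower at 24 h. That centring moved the median of all genes by -0.55 at 24 h, which by itself brings an unchanged gene close to the 1.5-fold limit. The share of all genes called with it is not given here, so the count of 7 is no result about the members.

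**Figure D1:**
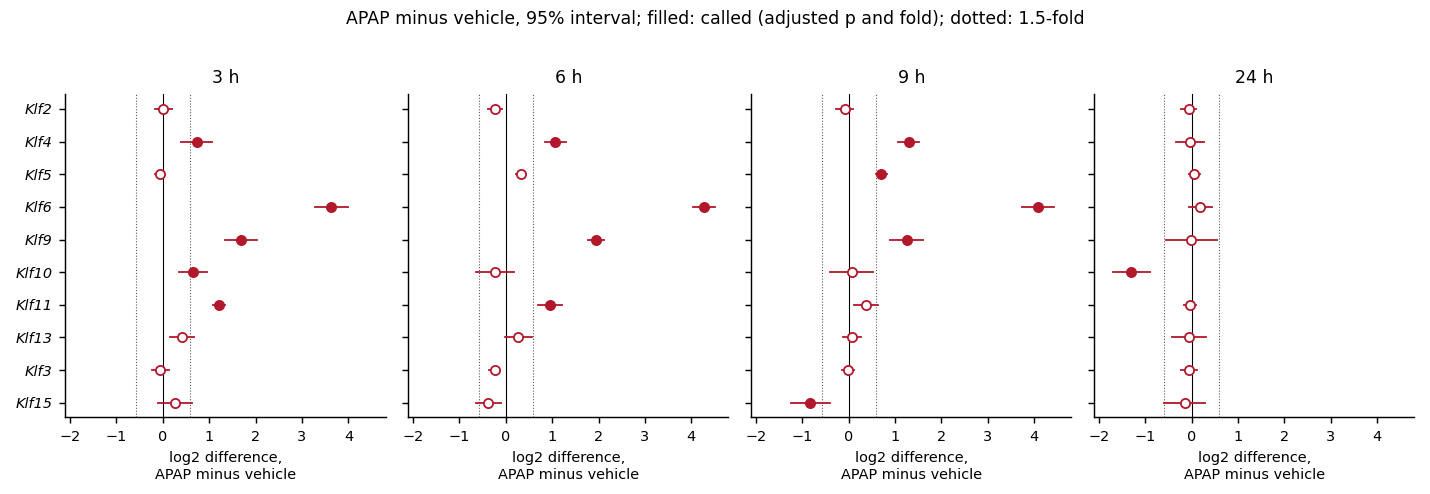
Log2 difference, APAP minus vehicle, for the 10 members at 3, 6, 9 and 24 h (x axis), with the 95% interval as a line. Filled points passed both thresholds, open points did not, and dotted lines mark 1.5-fold. Klf6 lies farthest to the right at 3, 6 and 9 h, Klf5 is filled at 9 h alone, and at 24 h Klf10 is the one filled point.

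Among the activating members, Klf6 responded most. In APAP rats its log2 values were 9.64, 9.94, 10.52, 9.73 and 9.39 at 3 h, 10.61, 10.45, 11, 10.70 and 10.31 at 6 h, 10.69, 10.27, 10.29, 10.82 and 10.94 at 9 h, then 6.96, 6.62, 7.07, 6.59 and 6.42 at 24 h. In vehicle rats they were 6.35, 6.18, 6.19, 6.19 and 6.16 at 3 h, 6.37, 6.30, 6.27, 6.46 and 6.35 at 6 h, 6.39, 7, 6.42, 6.52 and 6.27 at 9 h, then 6.60, 6.56, 6.54, 6.47 and 6.56 at 24 h. The 15 APAP rats of the first 3 times all lay above every vehicle and baseline rat, the highest vehicle rat being replicate 2 at 9 h with 7. At 24 h the groups overlapped. Baseline rats held 6.91, 6.59, 6.68, 6.66 and 6.37, above all vehicle rats of 3 h. Klf6 was 12.4-fold higher at 3 h (log2 difference 3.63 ± 0.16 SE, limma adjusted p = 9.51e-08), 19.2-fold at 6 h (4.27 ± 0.11, adjusted p = 7.17e-11) and 16.9-fold at 9 h (4.08 ± 0.16, adjusted p = 3.63e-09). At 24 h the difference was 0.19 ± 0.11 (adjusted p = 0.368), with a 95% interval from -0.06 to 0.43. Vehicle rats differed from baseline by -0.43 at 3 h (adjusted p = 0.00316) and -0.29 at 6 h (adjusted p = 0.0211), both below 1.5-fold. The range of its 9 group means was 4.4 on the log2 scale, which exceeded that of 99.7% of all genes.

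The groups of Klf6 fell into 2 blocks in order of level. The 4 vehicle groups, baseline and APAP at 24 h ran from 6.22 to 6.73, each overlapping its neighbour. APAP at 3 h (9.84 ± 0.43 SD), 9 h (10.60 ± 0.31) and 6 h (10.62 ± 0.27) lay 3.11 above them, again with neighbours overlapping (n = 5 each). The effect at 6 h exceeded that at 3 h by 0.64 ± 0.21 (adjusted p = 0.036 in the limma interaction test). That call was lost in 10 of the 20 fits that left out 1 animal, with values of 0.53 to 0.64 (APAP replicates 1, 4 and 5 at 3 h and 1, 3 and 4 at 6 h, vehicle replicate 1 at 3 h and 2, 3 and 5 at 6 h). Between 6 and 9 h the effect of APAP on Klf6 changed by -0.18 ± 0.20 (adjusted p = 0.688), and between 9 and 24 h it fell by 3.90 ± 0.21 on the log2 scale (adjusted p = 4.14e-11).

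**Figure D2:**
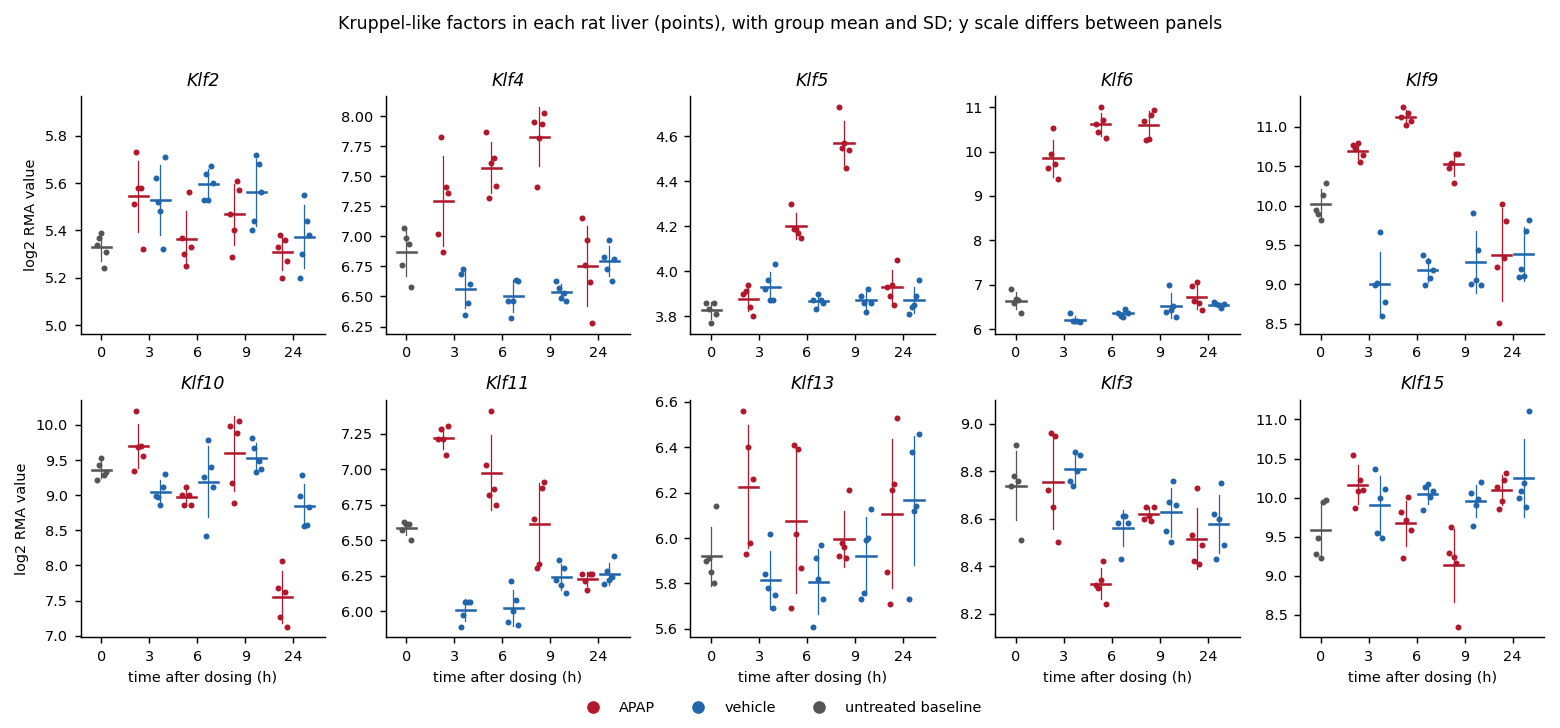
Log2 value of each member in every rat (points) against time after dosing in hours, equally spaced, with the untreated baseline at 0 h. APAP rats are red, vehicle rats blue and baseline rats grey, with horizontal bars at group means and vertical bars for the SD (n = 5). For Klf6 the group means leave a gap of 3.11, between APAP rats at 24 h and at 3 h, and Klf10 is lowest in APAP rats at 24 h.

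Klf4, a factor of epithelial and endothelial cells and monocytes, was higher in APAP rats by an amount that was largest at 9 h. Its APAP values were 7.02, 7.83, 6.87, 7.41 and 7.36 at 3 h, 7.87, 7.32, 7.61, 7.65 and 7.42 at 6 h, then 7.95, 7.41, 7.82, 7.94 and 8.03 at 9 h. Its vehicle values were 6.69, 6.73, 6.35, 6.45 and 6.60 at 3 h, 6.46, 6.32, 6.46, 6.64 and 6.63 at 6 h, then 6.63, 6.57, 6.49, 6.53 and 6.46 at 9 h. The groups did not overlap at these 3 times, although at 3 h APAP replicate 3 (6.87) lay close to the highest vehicle rat (6.73). The difference was 1.67-fold at 3 h (log2 0.74 ± 0.15 SE, adjusted p = 0.0035), 2.1-fold at 6 h (1.07 ± 0.10, adjusted p = 3.42e-06) and 2.45-fold at 9 h (1.29 ± 0.10, adjusted p = 1.05e-06). The increases between neighbouring times did not pass the test of the change (adjusted p = 0.277 and 0.443). At 24 h APAP rats held 7.15, 6.76, 6.97, 6.62 and 6.28 and vehicle rats 6.83, 6.73, 6.97, 6.63 and 6.81, a difference of -0.04 ± 0.14 (adjusted p = 0.931).

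Klf5, a factor of proliferating epithelium, was first called at 9 h, whereas the other members called higher against vehicle were called by 3 h. It was close to the bottom of the scale, with 0.915% of probe sets dimmer. APAP rats held 3.90, 3.91, 3.94, 3.84 and 3.8 at 3 h, 4.30, 4.19, 4.19, 4.17 and 4.15 at 6 h, then 4.73, 4.55, 4.57, 4.46 and 4.54 at 9 h. Vehicle rats held 3.92, 3.96, 3.87, 3.87 and 4.03 at 3 h, 3.87, 3.83, 3.90, 3.87 and 3.86 at 6 h, then 3.89, 3.86, 3.82, 3.92 and 3.86 at 9 h. The groups overlapped at 3 h and separated fully at 6 and 9 h. The log2 difference was -0.05 ± 0.05 at 3 h (adjusted p = 0.509), 0.33 ± 0.05 at 6 h (adjusted p = 0.000113, below 1.5-fold) and 0.70 ± 0.06 at 9 h (1.63-fold, adjusted p = 1.06e-06). Subtracting the 1st percentile of each array and adding an offset of 32 gave 0.31 at 9 h, below 1.5-fold, so the call was lost. For a gene this dim that offset shrinks the difference by construction. The step between 3 and 6 h was 0.39 ± 0.06 (adjusted p = 0.000179) and that between 6 and 9 h 0.37 ± 0.07 (adjusted p = 0.00198), each below 1.5-fold. At 24 h the difference was 0.06 ± 0.06 (adjusted p = 0.63).

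Klf2, the flow-responsive factor of endothelium, was called at no time. Its 45 values lay between 5.20 and 5.73. The widest difference was at 6 h, where APAP rats held 5.37, 5.30, 5.25, 5.56 and 5.33 and vehicle rats 5.53, 5.64, 5.53, 5.67 and 5.6, with 1 APAP rat inside the vehicle range. That difference was -0.23 ± 0.07 (adjusted p = 0.0119), below 1.5-fold, with a 95% interval from -0.37 to -0.09. Of the 8 endothelial markers measured among 12 listed, 0 were called at 3 h, Lyve1 was higher at 6 h, and Kdr and Tek were lower at 9 h. Among 10 endothelial genes linked with Klf2 and Klf4, higher and lower genes numbered 2 and 1 (3 h), 1 and 0 (6 h), 2 and 1 (9 h), and 0 and 0 (24 h). They included Vcam1, an adhesion molecule, at 0.67 ± 0.14 at 3 h and 0.72 ± 0.15 at 6 h, and Nos3, the endothelial nitric oxide synthase, at -0.59 ± 0.15 at 3 h.

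Of the Sin3-binding members, Klf9 differed in both comparisons. APAP rats held 10.77, 10.73, 10.80, 10.55 and 10.64 at 3 h, 11.12, 11.25, 11.02, 11.17 and 11.07 at 6 h, 10.48, 10.54, 10.29, 10.65 and 10.66 at 9 h, then 9.22, 8.51, 10.02, 9.33 and 9.81 at 24 h. Vehicle rats held 8.99, 9.02, 9.66, 8.60 and 8.77 at 3 h, 9.37, 8.99, 9.30, 9.08 and 9.18 at 6 h, 9.01, 9.90, 9.05, 9.44 and 8.99 at 9 h, then 9.09, 9.20, 9.11, 9.68 and 9.82 at 24 h. Baseline rats held 9.95, 9.89, 9.82, 10.13 and 10.29. The APAP rats were above all vehicle rats at 3, 6 and 9 h. At 24 h the vehicle range, 9.09 to 9.82, lay inside the wider APAP range, 8.51 to 10.02. APAP replicate 2, at 8.51, was lowest of all 45 rats. Klf9 was 3.23-fold higher with APAP at 3 h (1.69 ± 0.16, adjusted p = 1.11e-05), 3.84-fold at 6 h (1.94 ± 0.08, adjusted p = 3.5e-09) and 2.37-fold at 9 h (1.25 ± 0.16, adjusted p = 5.27e-05). At 24 h the difference was -0.01 ± 0.26 (adjusted p = 0.996), with a 95% interval from -0.56 to 0.55.

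Measured from baseline, part of that gap was a lower level in vehicle rats. Klf9 was the one member called in vehicle rats against baseline at 3, 6 and 9 h, and it was lower. Of all genes 1.85%, 2.33% and 2.92% were called lower at these times, and 1.7%, 2.7% and 3.48% higher. The difference was -1.01 ± 0.17 at 3 h (adjusted p = 0.000985), -0.83 ± 0.10 at 6 h (adjusted p = 6.64e-05) and -0.74 ± 0.17 at 9 h (adjusted p = 0.00467). At 24 h, where 2.93% of genes were called lower, it was -0.64 ± 0.15 (adjusted p = 0.00805). The 3 and 6 h vehicle rats all lay below every baseline rat, whereas at 9 h vehicle replicate 2, at 9.90, lay inside the baseline range, and at 24 h vehicle replicate 5 equalled the lowest baseline rat at 9.82. Leaving out baseline replicate 5, vehicle replicate 1 or vehicle replicate 3 brought the 24 h value to between -0.57 and -0.56, below 1.5-fold.

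Set against baseline, where gavage, time of day and food also differ, the rise of Klf9 in APAP rats was smaller. It was 1.6-fold at 3 h (0.68 ± 0.09, adjusted p = 0.000256) and 2.15-fold at 6 h (1.11 ± 0.09, adjusted p = 1.42e-06). At 9 h the difference was 0.51 ± 0.10 (adjusted p = 0.00123, below 1.5-fold), and at 24 h it was -0.64 ± 0.23 (adjusted p = 0.0574), which passed at -0.80 without APAP replicate 3 and at -0.75 without APAP replicate 5. Klf9 was called higher over baseline together with Klf6 and Klf11 at 3 h (2.43% of all genes were called higher) and with Klf4 and Klf6 at 6 h (5.93%). At 9 h the members called higher over baseline were Klf4, Klf5 and Klf6 (7.89%). At 3, 6 and 9 h 0 members were called lower, against 1.41%, 4.72% and 7.15% of all genes. At 24 h Klf10 was called lower (3.89%) and 0 were higher (4.54%). With arrays centred on the 6 ribosomal protein genes, the calls over baseline of Klf9 and Klf11 at 3 h, Klf4 at 6 h, and Klf4 and Klf5 at 9 h were lost.

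**Figure D3:**
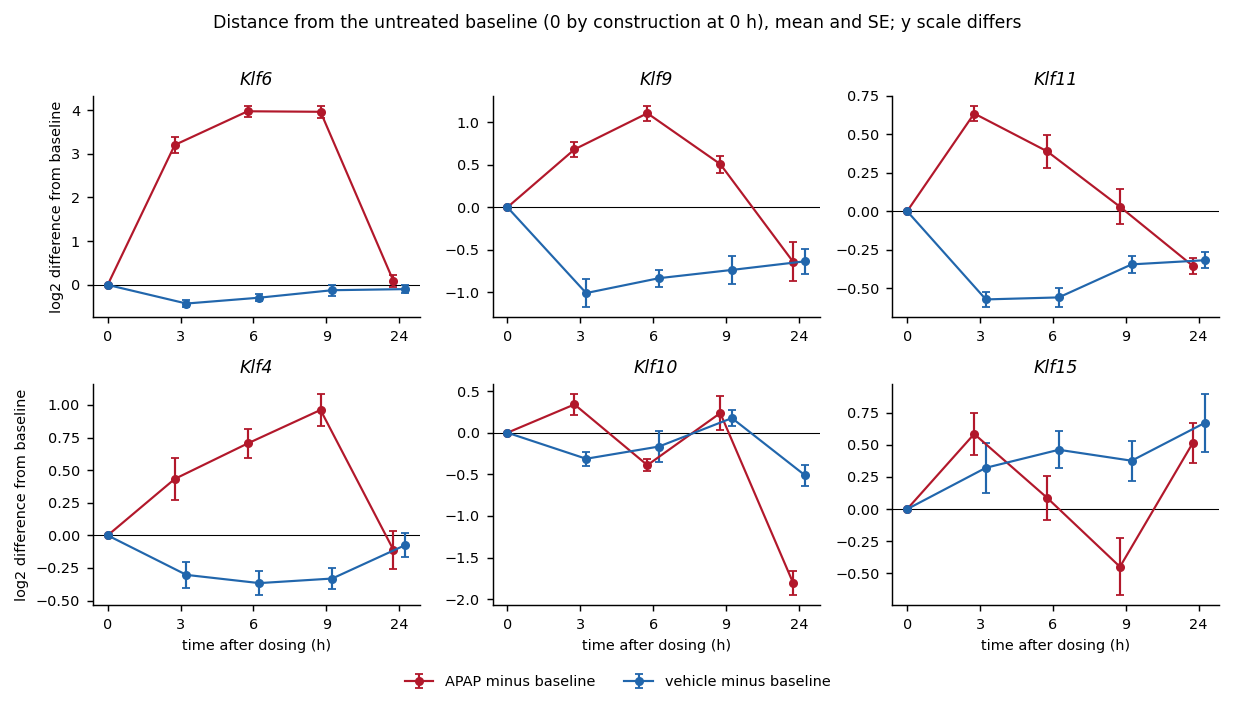
Log2 difference from the untreated baseline (y axis, mean ± SE) of APAP rats in red and vehicle rats in blue, against time after dosing in hours, equally spaced. The point at 0 h is 0 by construction, and both lines share the same 5 baseline rats. For Klf9 the vehicle line stays between -1.01 and -0.64 while the APAP line reaches 1.11 at 6 h, and for Klf6 the vehicle line lies between -0.43 and -0.10.

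Klf11 had the same 2 sides as Klf9 at smaller size. APAP rats held 7.21, 7.28, 7.21, 7.10 and 7.3 at 3 h, 7.03, 6.82, 7.41, 6.86 and 6.75 at 6 h, then 6.65, 6.30, 6.33, 6.87 and 6.91 at 9 h. Vehicle rats held 5.89, 5.97, 6.06, 6.06 and 6.06 at 3 h, 5.92, 6.21, 6.00, 6.08 and 5.90 at 6 h, then 6.22, 6.36, 6.18, 6.30 and 6.13 at 9 h. Baseline rats held 6.57, 6.63, 6.61, 6.61 and 6.50, which lay between the APAP and vehicle rats of 3 and 6 h without overlap. Klf11 was 2.31-fold higher with APAP than with vehicle at 3 h (1.21 ± 0.06, adjusted p = 9.51e-08) and 1.93-fold at 6 h (0.95 ± 0.12, adjusted p = 2.82e-05). At 9 h the difference was 0.37 ± 0.12 (adjusted p = 0.0217, below 1.5-fold), and at 24 h -0.04 ± 0.06 (adjusted p = 0.794). Against baseline, APAP rats were 1.55-fold higher at 3 h (0.64 ± 0.05, adjusted p = 8.12e-06). Vehicle rats differed from baseline by -0.57 ± 0.05 at 3 h (adjusted p = 1.12e-05), -0.56 ± 0.06 at 6 h, -0.35 ± 0.05 at 9 h and -0.32 ± 0.05 at 24 h, each with an adjusted p under 0.05 and each short of 1.5-fold. The 3 h value passed 1.5-fold, at -0.60 to -0.59, when baseline replicate 5 or vehicle replicate 3, 4 or 5 was left out, and the 6 h value did so, at -0.61, without vehicle replicate 2.

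Klf10, the first TGF-beta inducible early gene, was higher at 3 h and lower at 24 h. APAP rats held 9.35, 10.20, 9.69, 9.70 and 9.56 at 3 h, and vehicle rats 8.99, 8.98, 8.86, 9.11 and 9.30. The groups did not overlap, but the lowest APAP rat and the highest vehicle rat, 9.35 and 9.30, nearly met. The difference was 1.57-fold (0.65 ± 0.14, adjusted p = 0.00314), and without APAP replicate 2 it was 0.53, below 1.5-fold. At 6 h APAP rats held 9.00, 8.86, 9.12, 9.01 and 8.86 and vehicle rats 9.26, 8.42, 9.78, 9.40 and 9.11, so that the APAP rats lay inside the vehicle range (-0.22 ± 0.19, adjusted p = 0.377). The effect of APAP on Klf10 thus differed between 3 and 6 h, by -0.88 ± 0.25 (adjusted p = 0.0167). Klf10 and Klf6 were the members called for a change between these times, 1 lower and 1 higher, where 2.72% of all genes were called lower and 4.18% higher.

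At 24 h APAP rats held 7.68, 7.27, 8.07, 7.62 and 7.13 for Klf10, and vehicle rats 8.99, 9.29, 8.56, 8.58 and 8.83. All 5 APAP rats were below every other rat of the series. Klf10 was at 0.407 times the vehicle level (-1.30 ± 0.18, adjusted p = 0.000805) and at 0.286 times the baseline level (-1.81 ± 0.15, adjusted p = 3.92e-06). Vehicle rats at 24 h differed from baseline by -0.51 ± 0.13 (adjusted p = 0.0107, below 1.5-fold), and by -0.62 without vehicle replicate 2, past both thresholds. At the same time Lrat, Col1a1 and Col3a1 were lower among the 8 stellate cell and fibroblast markers, Adgre1 among the 6 measured of 8 Kupffer cell and macrophage markers, and Alas2 among the 4 measured of 5 erythroid markers. The mean of the stellate list ran from 7.91 to 8.23 in APAP rats and from 8.23 to 8.58 in vehicle rats, that of the Kupffer list from 8.54 to 9.12 and from 8.89 to 9.32, and that of the erythroid list from 8.60 to 9.05 and from 8.95 to 9.19. Their part in the fall of Klf10 was not tested.

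At 9 h the APAP rats divided for Klf10. Replicates 1, 4 and 5 held 9.98, 9.89 and 10.06 and replicates 2 and 3 held 9.17 and 8.89, against 9.81, 9.67, 9.33, 9.49 and 9.38 in vehicle rats, so that 3 APAP rats lay above and 2 below all vehicle rats (0.06 ± 0.21, adjusted p = 0.844). Klf11 divided the same way, with replicates 1, 4 and 5 above all vehicle rats and replicates 2 and 3 inside the vehicle range. These 3 rats also held the 3 highest APAP values of Klf4 and Klf6 at 9 h, genes for which all 5 APAP rats lay above vehicle. Klf5 and Klf9, for which all 5 also lay above vehicle, did not follow this order. Klf5 was lowest in replicates 4 and 5 (4.46 and 4.54), and Klf9 was lower in replicate 1 (10.48) than in replicate 2 (10.54). The same 3 animals had the highest mean of the 4 erythroid markers measured, 10.87, 10.34 and 10.79 in replicates 1, 4 and 5, against 9.03 and 9.34 in replicates 2 and 3 and 8.98 to 9.39 in vehicle rats. Of these markers Hbb, a beta globin, was called higher at 9 h (0.82 ± 0.24, adjusted p = 0.0152). The mean of the 5 neutrophil and monocyte markers measured among 8 listed was 6.85, 6.17 and 6.42 in replicates 1, 4 and 5, against 5.61 and 5.75 in replicates 2 and 3 and 5.51 to 5.91 in vehicle rats, and S100a8 was called higher. What part these cells had was not tested.

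**Figure D4:**
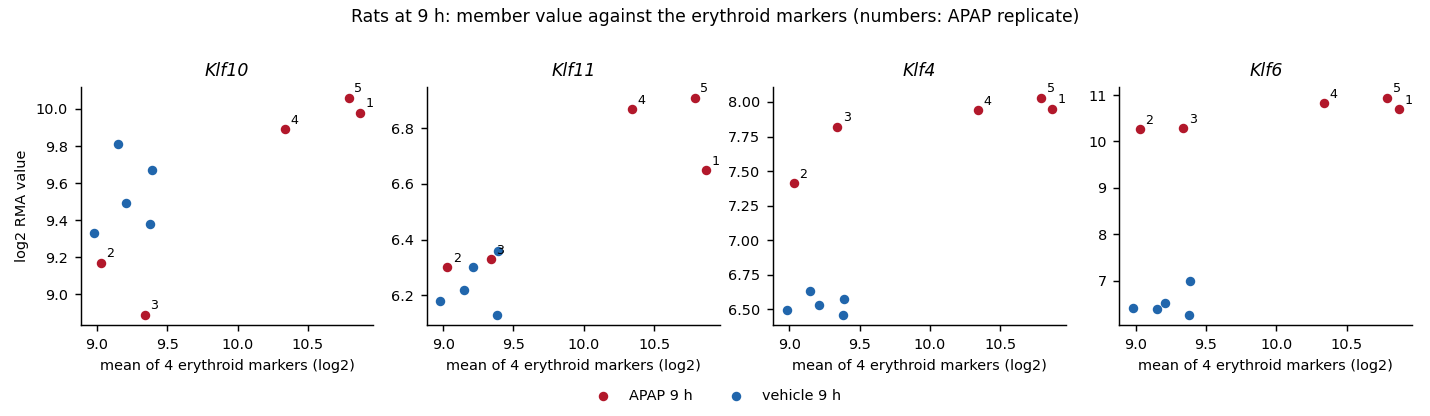
Log2 value of Klf10, Klf11, Klf4 and Klf6 (y axis) against the mean of 4 erythroid markers (x axis, log2) in the 5 APAP rats (red, numbered by replicate) and 5 vehicle rats (blue) at 9 h. Replicates 1, 4 and 5 lie to the right, between 10.34 and 10.87, and hold the 3 highest APAP values of each of the 4 genes. For Klf4 and Klf6 all 5 APAP rats lie above every vehicle rat. Klf5 and Klf9, which are not plotted, did not follow this order of replicates.

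With those 3 arrays left out, a step chosen after their values were seen, 4 members were called at 9 h in place of 5. Klf6 remained at 3.76 over vehicle, Klf9 at 1.14, Klf4 at 1.08 and Klf5 at 0.69, all called. Klf15 was at -0.52 (adjusted p = 0.02, below 1.5-fold), Klf11 at 0.08 (adjusted p = 0.469) and Klf10 at -0.51 (adjusted p = 0.0161, below 1.5-fold). For Klf10 the sign at 9 h therefore rested on which animals were kept.

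Klf13, the remaining Sin3-binding member, was called at no time. At 3 h APAP rats held 6.56, 5.93, 6.40, 5.98 and 6.26 and vehicle rats 5.84, 5.78, 6.02, 5.69 and 5.75, with 2 APAP rats inside the vehicle range. The difference was 0.41 ± 0.12 (adjusted p = 0.0195), below 1.5-fold, with a 95% interval from 0.16 to 0.67. At 6, 9 and 24 h it was 0.27, 0.07 and -0.06, with adjusted p values of 0.126, 0.531 and 0.906. Klf3, the CtBP-binding member, was likewise called at no time. At 6 h APAP rats held 8.32, 8.31, 8.34, 8.42 and 8.24 and vehicle rats 8.58, 8.43, 8.61, 8.61 and 8.58. The groups did not overlap, as was so for 33.1% of all genes, and the difference was -0.23 ± 0.06 (adjusted p = 0.00392). Against baseline the same APAP rats stood at -0.41 ± 0.07 (adjusted p = 0.000563), again below 1.5-fold.

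Klf15 was the member that fell at 9 h. APAP rats held 10.55, 9.87, 10.09, 10.23 and 10.10 at 3 h, 9.82, 9.23, 9.71, 10.01 and 9.58 at 6 h, then 9.29, 9.62, 9.24, 9.17 and 8.35 at 9 h. Vehicle rats held 10.37, 9.55, 10, 9.48 and 10.11 at 3 h, 9.84, 10.13, 10.17, 10.01 and 10.08 at 6 h, then 10.06, 9.64, 9.91, 9.98 and 10.20 at 9 h. The groups overlapped at 3 and 6 h and came apart at 9 h by the width of 9.62 in APAP replicate 2 against 9.64 in vehicle replicate 2. The log2 difference was 0.26 ± 0.17 at 3 h (adjusted p = 0.307), -0.37 ± 0.12 at 6 h (adjusted p = 0.028, below 1.5-fold) and -0.82 ± 0.20 at 9 h (adjusted p = 0.00416), a level of 0.565 times that in vehicle rats. At 24 h APAP rats held 10.13, 9.85, 9.96, 10.22 and 10.32 and vehicle rats 9.99, 10.09, 10.19, 9.88 and 11.11 (-0.15 ± 0.20, adjusted p = 0.749).

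Vehicle rats were above baseline for Klf15, the opposite side from Klf9. The vehicle groups averaged 9.90, 10.04, 9.96 and 10.25 at 3, 6, 9 and 24 h, and baseline rats held 9.28, 9.48, 9.23, 9.95 and 9.97. The difference passed both thresholds at 24 h alone (0.67 ± 0.23, adjusted p = 0.0491), where 3.62% of all genes were called higher. That call lay close to the limit of adjusted p and was lost in several fits that left out 1 rat. Without vehicle replicate 5 the value fell to 0.45 (adjusted p = 0.0614). Without vehicle replicate 2 or 3 it was 0.71 and 0.68, and without baseline replicate 1, 2 or 3 it was 0.58 to 0.64. In these fits the limma adjusted p ran from 0.0606 to 0.115. APAP rats stood at 0.58 ± 0.16 from baseline at 3 h (adjusted p = 0.0258) and at 0.51 ± 0.15 at 24 h (adjusted p = 0.0251), both short of 1.5-fold, and at -0.45 ± 0.22 at 9 h (adjusted p = 0.129). The 3 h value passed, at 0.60 to 0.68, without baseline replicate 4 or 5 or APAP replicate 2, 3 or 5, and the 24 h value passed, at 0.61, without baseline replicate 4 or 5.

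The change between 9 and 24 h was common to several members. Klf4, Klf5, Klf6, Klf9 and Klf10 were called lower in the test of that change, against 8.03% of all genes, and 0 were called higher, against 8.4%. The effect of APAP changed by -1.33 ± 0.18 for Klf4, -0.64 ± 0.08 for Klf5, -1.25 ± 0.33 for Klf9 and -1.36 ± 0.30 for Klf10, with adjusted p values of 1.06e-05, 1.5e-06, 0.00503 and 0.00142. Without the 3 arrays highest in erythroid markers the change of Klf10 was -0.79 (adjusted p = 0.0421). Between 6 and 9 h Klf9 was the member called lower (-0.69 ± 0.19, adjusted p = 0.0262), against 1.46% of all genes called lower and 1.66% higher. This call was lost without vehicle replicate 2 at 6 h (-0.65, adjusted p = 0.0507) or vehicle replicate 2 at 9 h (-0.54). Klf11 changed by -0.58 ± 0.18 over the same step (adjusted p = 0.0446, below 1.5-fold) and was called in 6 of the 20 fits that left out 1 animal. Klf15 changed by -0.64 ± 0.23 between 3 and 6 h (adjusted p = 0.0539) and by 0.67 ± 0.30 between 9 and 24 h (adjusted p = 0.0994), and was called in 5 and 2 of 20 such fits.

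Likeness between members was read over the 9 group means, which share the normalisation of 1 table, and is a description. Klf6 ran with Klf4 (Pearson r = 0.96) and Klf9 (0.93), and Klf9 with Klf11 (0.93), whereas Klf5 and Klf15 ran against each other (-0.8). The closest genes were sought among those with a proper symbol, which leaves out provisional names such as LOC and RGD. Closest to Klf6 were Ppp1r15a, a phosphatase subunit of the stress response that reverses eIF2alpha phosphorylation, and Maff, a small Maf factor (both 0.997). Those closest to Klf9 were Arl5b (0.999) and Fnip1 (0.992), and to Klf11 Pnrc1 (0.991) and Plag1 (0.975). Klf4 was closest to Mapkapk2, a kinase downstream of p38 (0.986), and Eaf1 (0.984), and Klf5 to Lor (0.996) and Ehd4 (0.987). Klf15 was closest to Stat2 (0.969) and Nr0b2 (0.959), a nuclear receptor of bile acid control, and Klf10 to Lrrc32 (0.969) and Clasrp (0.965). A high r does not mean a like size of change. Group means ran from 7.41 to 11.89 for Ppp1r15a, but from 5.12 to 5.46 for Plag1, 6.29 to 6.70 for Lrrc32 and 6.66 to 6.98 for Clasrp.

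Genes around the Kruppel-like factors were counted with the same thresholds, in lists chosen with earlier results of these data known. Of all genes, 3.34%, 7.06%, 8.65% and 1.56% were called higher with APAP than with vehicle at 3, 6, 9 and 24 h. The shares called lower were 2.98%, 7.04%, 8.47% and 1.84%. Of 17 other Klf and Sp genes, 7 were on the table. Klf12, a CtBP-binding repressor, was the one of them called, lower at 6 h (-0.65 ± 0.09, adjusted p = 6.18e-05) and 9 h (-0.64 ± 0.06, adjusted p = 6.397e-06). Of 12 cofactors of Klf proteins measured among 13 listed, which included Sin3a, Ctbp1 and Ep300, 0 were called at 3, 6 or 9 h and Hdac2, a histone deacetylase, was lower at 24 h (-0.84 ± 0.12, adjusted p = 0.0007234). Of 8 ubiquitin ligases that act on Klf proteins, Vhl was higher at 6 h (1.04 ± 0.10) and 9 h (0.77 ± 0.08) and 0 others were called.

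Immediate early genes, among which Klf4, Klf6 and Klf10 are often counted, were mostly higher at 3, 6 and 9 h. Of 16 measured among 18 listed, 10, 12, 12 and 0 were higher at 3, 6, 9 and 24 h, and 1 was lower, at 24 h (Ier2, -0.99 ± 0.21). The largest at 3 h were Atf3 (6.62 ± 0.35), the AP-1 subunit Jun (4.55 ± 0.28) and Maff (4.28 ± 0.17). Of 11 glucocorticoid receptor targets measured among 12 listed, 7 were higher at 3 h, 8 at 6 h and 4 at 9 h, with 1 lower at 9 h (Sgk1, -0.71 ± 0.21) and 2 lower at 24 h. Fkbp5, a chaperone of the receptor, stood at 1.25 ± 0.17 and 2.17 ± 0.07 at 3 and 6 h. Dusp1, a phosphatase of MAP kinases, stood at 4.19 ± 0.34, 2.11 ± 0.28 and 1.89 ± 0.25 at 3, 6 and 9 h. In vehicle rats against baseline, where Klf9 fell, higher and lower genes of this list numbered 0 and 1 (3 h), 1 and 3 (6 h), 2 and 2 (9 h), and 3 and 1 (24 h). Of all genes, 1.7%, 2.7%, 3.48% and 3.62% were higher there and 1.85%, 2.33%, 2.92% and 2.93% lower. What part glucocorticoids had in the values of Klf9 was not tested.

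Klf10 and Klf11 carry the older name Tieg, and 16 of 17 listed genes of TGF-beta signalling were measured. Higher and lower genes among them numbered 1 and 3 (3 h), 2 and 2 (6 h), 4 and 0 (9 h), and 0 and 0 (24 h). Tgif1, a corepressor of Smad proteins, was higher at 3, 6 and 9 h (1.32 ± 0.12, 2.32 ± 0.13 and 2.27 ± 0.12), and Id2 and Id3, targets of bone morphogenetic protein, were lower at 3 h (-1.45 ± 0.20 and -0.96 ± 0.11). Of 7 genes linked with Klf6 and measured, among 8 listed, the cell cycle inhibitor Cdkn1a was higher at 3, 6 and 9 h (1.72 ± 0.13, 1.91 ± 0.12 and 1.78 ± 0.17), Cdh1, the epithelial cadherin, was lower at 3 and 6 h (-1.11 ± 0.15 and -1.40 ± 0.15), and Col1a1 was lower at 24 h.

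Genes of amino acid breakdown and gluconeogenesis linked with Klf15 in mouse moved in both directions. Higher and lower genes among the 14 numbered 4 and 2 (3 h), 5 and 3 (6 h), 3 and 4 (9 h), and 0 and 1 (24 h). Pck1 and G6pc, enzymes of gluconeogenesis, were higher at 3 h, by 3.85 ± 0.29 and 2.89 ± 0.14, and remained so 3 h later (2.43 ± 0.51 and 2.20 ± 0.23). At 9 h, where Klf15 was lower, Hal, which breaks down histidine, was lower (-2.09 ± 0.19), while Sds, which breaks down serine, and Got1, an aspartate aminotransferase, were higher (2.24 ± 0.38 and 1.43 ± 0.23). Among 17 of 18 circadian clock genes measured, higher and lower genes numbered 3 and 2 (3 h), 4 and 3 (6 h), 2 and 4 (9 h), and 0 and 2 (24 h). Per2, a repressor of the clock, was lower at 3, 6 and 9 h (-2.82 ± 0.22, -2.13 ± 0.23 and -1.21 ± 0.25), and Nfil3 was higher at 6 h (2.41 ± 0.13).

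Single markers of other cell types were seldom called at 3 and 6 h, but the means of some lists separated. At 3 h 0 of the endothelial, cholangiocyte, stellate, neutrophil and monocyte, lymphocyte and erythroid markers were called, and Cd163 was the 1 called of 6 Kupffer cell and macrophage markers (0.65 ± 0.13, higher). The mean of the Kupffer list ran from 9.20 to 9.67 in APAP rats and from 8.99 to 9.19 in vehicle rats at 3 h, and that of the endothelial list from 8.36 to 8.53 and from 8.25 to 8.35, without overlap. At 6 h Cd163 and Lyve1 were higher and Lrat, the retinol enzyme of stellate cells, was lower (-1.55 ± 0.17). The endothelial mean again lay higher, from 8.36 to 8.40 in APAP rats and from 8.27 to 8.29 in vehicle rats, and the stellate mean lay lower, from 7.98 to 8.16 and from 8.18 to 8.45. At 9 h both lay lower, the stellate mean from 7.90 to 8.12 in APAP rats and from 8.23 to 8.45 in vehicle rats, and the endothelial mean from 8.10 to 8.30 and from 8.31 to 8.38. What part a shift in cell types had in the Klf values of 3, 6 and 9 h was not tested.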

How the data were processed

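The deposited table held log2 values that the authors made from Affymetrix rat genome arrays by RMA (affy 1.64.0, R 3.6.1), which background-corrects, quantile-normalises and summarises probe intensities, with a BrainArray remapping to 1 probe set per gene. RMA gives all arrays 1 distribution and compresses differences of dim genes. Symbols came from a second deposited sheet, whose 45 value columns have headings that could not be matched to the labels and were left aside. The sources used here give no array batch or scan date.

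Groups were compared by limma 3.58.1 (lmFit, eBayes; R 4.3.3) without covariates, in a fit of the 10 arrays compared, or of 20 for a change between times. Benjamini-Hochberg adjustment ran over 13877 genes, and the thresholds (adjusted p under 0.05 and 1.5-fold) were those of the study's methods. The members, lists and tests were chosen with earlier results of these data known. All members are named, with the 2 genes of proper symbol most like each called member. Of a list, at most the 3 called genes of largest change in a comparison are named. Sgk1 and the cell type markers named were chosen after their values were seen. Motifs were searched on both strands. Rats that share a replicate number did not pair: in each comparison 0 to 2 of 5 such pairs correlated above 0.1 in their deviations from the group means. Scripts were tested on simulated data. Alternatives were a joint fit of 45 arrays, limma-trend, robust eBayes, array weights, a filter on the 25% dimmest genes, cyclic loess, background subtraction with an offset, ribosomal centring, other thresholds, limma treat, a replicate block and leaving out each rat. The number of arrays limits the precision.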

Additional observations from a re-analysis of the deposited data

Results flagged for a closer look

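Of 90 sets of 5 rats (10 members in 9 groups), 4 had 1 rat far from the others, and chance alone flags about 1 in 20 such sets. Klf3 was at 8.43 in vehicle replicate 2 at 6 h, against 8.58 to 8.61 in the others. Klf6 was at 6.35 in vehicle replicate 1 at 3 h, against at most 6.19. Klf13 was at 6.21 in APAP replicate 5 at 9 h, against at most 5.98. Klf15 was at 11.11 in vehicle replicate 5 at 24 h, against at most 10.19, and without that rat Klf15 at 24 h was not called over baseline (0.45, adjusted p = 0.0614 by limma).

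The effect of APAP differed between neighbouring times by limma's test of the change in 8 cases. Between 3 and 6 h it changed by 0.64 for Klf6 and by -0.88 for Klf10. Between 6 and 9 h it changed by -0.69 for Klf9. Between 9 and 24 h it changed by -1.33 for Klf4, -0.64 for Klf5, -3.90 for Klf6, -1.25 for Klf9 and -1.36 for Klf10. Of these, the change of Klf6 between 3 and 6 h and that of Klf9 between 6 and 9 h were lost in some fits that left out 1 rat.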

How the results depend on the processing

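No direction of a called member reversed under any alternative run, and of 2700 values called in neither setting 79 had another sign. The planned centring could not be run, because its 6 ribosomal protein genes were not on the table, and 6 others were used, chosen after seeing the data.

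Numbers are of members called, out of 10. Another threshold or centring also changes the share of all genes called, which is not given for these settings. The counts below therefore cannot be set against the shares given earlier. For APAP against vehicle, a 2-fold threshold and limma treat each left 3 at 3 h (5 as reported) and 3 at 9 h (5), no fold threshold gave 8 at 6 h (4), and at 24 h treat left 0 and ribosomal centring gave 7 (1), all lower. That centring moved the median of all genes by -0.55 at 24 h and by -0.11 at 9 h against vehicle, and by as much as -0.66 against baseline, so it gives changes relative to ribosomal genes, and the cause of their own shift was not tested. For vehicle against baseline (1, 1, 1 and 2 at 3, 6, 9 and 24 h), array weights gave 2 at 3 h, ribosomal centring gave 2, 3 and 3 at 3, 6 and 9 h, no fold threshold gave 5, 6, 4 and 4, a 2-fold threshold gave 0 at 6, 9 and 24 h, and treat gave 0 at all 4 times. At 24 h robust empirical Bayes, cyclic loess, background subtraction and an adjusted p under 0.01 each left 1. For APAP against baseline (3, 3, 3 and 1), ribosomal centring gave 1 at 3 h (Klf9 at 0.57 and Klf11 at 0.53 were lost) and 6 at 24 h. At 6 h it ended the call of Klf4 (0.49) and called Klf3 (-0.63) and Klf10 (-0.60) lower, and at 9 h it ended those of Klf4 (0.54) and Klf5 (0.33) and called Klf15 lower (-0.86). Here no fold threshold gave 5, 7 and 3 at 3, 6 and 24 h, and a 2-fold threshold and treat each left 1 at 3 and 9 h. At 24 h the fit of all 45 arrays, the filter on dim genes, cyclic loess and the replicate block each gave 2, and array weights gave 3.

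For the change between 3 and 6 h (2), array weights and ribosomal centring each gave 1, and an adjusted p under 0.01, a 2-fold threshold and treat each gave 0. Between 6 and 9 h (1), the fit of all arrays, an adjusted p under 0.01, a 2-fold threshold and treat each gave 0, ribosomal centring gave 2, no fold threshold gave 3, and leaving out the 3 rats highest in erythroid markers gave 2. Between 9 and 24 h (5), treat left 2. Background subtraction ended the calls of Klf5 at 9 h over vehicle and over baseline (0.31 each) and for the change between 9 and 24 h (-0.31). It also ended the call of Klf11 over baseline at 3 h (0.56).

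Leaving out 1 rat gave 4 to 5 at 3 h, 4 at 6 h, 5 at 9 h and 1 at 24 h for APAP against vehicle. It gave 1 to 2 at 3 h, 1 to 2 at 6 h, 1 at 9 h and 0 to 2 at 24 h for vehicle against baseline, and 3 to 4, 3, 3 and 1 to 2 for APAP against baseline. For the changes between times it gave 1 to 3, 0 to 2 and 5 to 6. The replicate block changed no other call count by over 1.5 times. With 5 rats a group, and Klf5 near the lower end of the scale, small differences of dim members are the least certain.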
